A study of Mus musculus with 6 samples.

Results

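The fibroblasts described here were chosen by transcripts of Cilp, which encodes cartilage intermediate layer protein, of Thbs4, which encodes thrombospondin 4, and of Col8a1. Cilp was detected in 96.6% of these cells and Thbs4 in 35.8% of these cells. They come from the mitral valves of K/B.g7 mice and their B.g7 controls, digested and sorted as live single cells for droplet sequencing of 3′ transcript ends, with 1 library per genotype at 3, 8 and 25 weeks. Both genotypes carry the g7 haplotype of the major histocompatibility complex. K/B.g7 mice also carry the KRN T cell receptor transgene, through which T cells help B cells make autoantibodies, and the labels call their valves inflamed. B.g7 mice lack the transgene and are labelled control. How many mice made up a library, and of which sex, is not in the labels. The p-values therefore rest on these 6 libraries only, and the spread between them may be partly technical. In the tests of single genes, most of the spread was taken from all genes together. With 1 library per genotype and age, a library's own features and the age of its mice cannot be told apart.

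Cells were chosen by a rule on their unique molecular identifiers (UMIs, the counted molecules). A barcode needed at least 300 genes, at most 10% mitochondrial UMIs, at least 1% of UMIs from Dcn, Col1a1 and Col1a2, and no UMI of Ptprc or Pecam1, which mark leukocytes and endothelium. These criteria, called the fibroblast gate, kept 34660 of 53526 barcodes of passing quality and of 58351 in all. Members of the gate further needed at least 4 UMIs of Cilp, Thbs4 and Col8a1 together, with Cilp or Thbs4 among them, no Chad, at most 1 UMI of Wif1 and under 5 of Mmp3 and Lcn2. This left 3097 members, with 259, 429 and 1434 from K/B.g7 valves and 292, 79 and 604 from B.g7 valves at 3, 8 and 25 weeks. The other 31563 cells of the gate are called other fibroblasts. The rule was selected on these data, so its own genes and any gene that separates members from other fibroblasts are a description without a test.

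The fibroblasts of a mitral valve lay down its collagen, proteoglycan and elastic layers, and the leaflets are held by chordae, cords of tendon-like tissue. Cilp is a secreted matrix protein of cartilage and heart that binds TGF-beta and dampens its signals. Thbs4 is a pentameric matrix glycoprotein of tendon, muscle and heart, a relative of Comp. Col8a1 is a chain of the network-forming collagen VIII, and Scx is a basic helix-loop-helix factor that acts at E-box sequences in tendon cells.

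The 250 bases before the annotated starts of Cilp and Thbs4 are shown because each member needed a UMI of Cilp or Thbs4. Scx also moved with Thbs4 in the comparison of members with and without Thbs4. The sequences are from RefSeq on GRCm38.p6 and are written along the gene's strand, with each E-box CANNTG, which reads the same on both strands, in capitals.
Cilp (chr9:65264930-65265179, plus strand): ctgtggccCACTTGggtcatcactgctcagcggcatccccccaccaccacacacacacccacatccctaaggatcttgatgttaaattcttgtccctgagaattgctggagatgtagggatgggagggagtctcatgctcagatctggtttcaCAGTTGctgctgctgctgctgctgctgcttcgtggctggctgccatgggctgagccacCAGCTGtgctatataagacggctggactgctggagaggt
Thbs4 (chr13:92794819-92795068, minus strand): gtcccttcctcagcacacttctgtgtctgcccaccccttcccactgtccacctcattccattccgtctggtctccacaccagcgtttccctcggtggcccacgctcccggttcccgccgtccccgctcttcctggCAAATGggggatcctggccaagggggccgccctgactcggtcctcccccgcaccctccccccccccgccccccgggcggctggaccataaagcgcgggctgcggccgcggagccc
The Cilp window holds 3 E-boxes, which begin 242, 97 and 39 bases before the start. The Thbs4 window holds 1, which begins 115 bases before it. The same windows of Col8a1 and Fmod hold 2 and 1, and those of Tnmd and Fibin hold 0. Of all 32851 such windows, 66.2% hold at least 1 E-box and 12.2% hold 3 or more. A match of letters is not a binding site.

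The libraries held between 15196750 and 69152541 UMIs, and the summed members between 483209 (B.g7, 8 weeks) and 6168284 (K/B.g7, 25 weeks). Members had a median of 5102, 6123 and 3984 UMIs in K/B.g7 and 4127, 5929 and 7079 UMIs in B.g7 at 3, 8 and 25 weeks, and their medians were above those of other fibroblasts in all 6 libraries. The B.g7 library of 8 weeks differed in the sex of its cells: 72 members had a UMI of Xist and none of Ddx3y, and 1 had the reverse, while the other 5 libraries held both kinds. Counts of the 2 kinds were 125 and 55, 166 and 115, and 388 and 346 in K/B.g7 at 3, 8 and 25 weeks. In B.g7 they were 80 and 75 at 3 weeks and 399 and 85 at 25 weeks, so the mix also differed there. Hemoglobin and Alas2 transcripts, a list of 5 red cell genes, summed to 16.6, 1222 and 229.7 CPM (UMIs of a gene per 1000000 UMIs summed over the members of a library) in K/B.g7 and to 18.0, 8.28 and 22.1 CPM in B.g7. The 9 immune markers summed to between 2.16 and 20.7 CPM in K/B.g7 members and between 2.07 and 4.10 CPM in B.g7 members. The 6 endothelial markers reached at most 16.7 CPM. Pairs of libraries shared between 6 and 73 barcodes, and 1 member barcode occurred in more than 1 library.

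The rule fixes that members carry Cilp, Thbs4 or Col8a1, so these shares describe the choice. Cilp had a UMI in 96.6% of members and in 11.8% of other fibroblasts. Col8a1 had one in 88.2% of members and in 32.2% of other fibroblasts. Thbs4 had one in 35.8% of members and in 5.02% of other fibroblasts, so most members met the rule through Cilp and Col8a1, and 1814 of them (58.6%) had both and no Thbs4. Fibin, a small secreted protein that the rule did not use, had a UMI in 81.6% of members and in 44.1% of other fibroblasts. In barcodes with a Ptprc UMI, which should lack these genes, the shares were 2.33% for Cilp, 1.01% for Thbs4, 4.71% for Col8a1 and 7.30% for Fibin, with library medians of 1483 to 4158 UMIs, below the 3984 to 7079 of members. Just inside the rule, 429 cells had 4 UMIs of the 3 genes and 66.4% of them had Fibin. Just outside it, 548 cells had 3 UMIs and 62.0% had Fibin. By library the share with Fibin was higher just inside than just outside the rule in 4 of 6 libraries and lower in K/B.g7 at 25 weeks and B.g7 at 3 weeks.

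Members formed between 2.72% and 10.6% of the fibroblast gate. The shares in K/B.g7 were 6.70% at 3 weeks (exact binomial 95% interval 5.93 to 7.53), 7.44% at 8 weeks (6.77 to 8.15) and 10.6% at 25 weeks (10.1 to 11.1). In B.g7 they were 10.6% (9.45 to 11.8), 2.72% (2.16 to 3.37) and 10.4% (9.61 to 11.2). K/B.g7 was lower at 3 weeks and higher at 8 weeks, and the intervals overlapped at 25 weeks. Depth differed there, with a median of 2904 UMIs in other fibroblasts of K/B.g7 and 5778 UMIs in those of B.g7. With gate cells thinned to 2000 UMIs, which kept 2360 to 11497 cells per library, the shares were 3.78%, 3.45% and 7.50% for K/B.g7 valves and 6.36%, 1.12% and 4.78% for B.g7 valves at 3, 8 and 25 weeks. K/B.g7 was then higher at 25 weeks too (7.02 to 7.99, against 4.23 to 5.37). With the 3 genes required to make up 0.1% of UMIs, the 25-week shares were 11.0% for K/B.g7 valves and 7.34% for B.g7 valves. The intervals cover counting error only. Over the 3 ages the mean share was 8.24% ± 2.07 for K/B.g7 valves and 7.89% ± 4.48 for B.g7 valves (SD, n = 3 each), a difference of 0.354 percentage points. A two-sided exact permutation test gave p = 0.8, and 3 against 3 libraries cannot go below 0.1. That test did not pair the libraries by age. Without the 8-week libraries the difference was -1.83 points, with its sign turned.

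**Figure D1:**
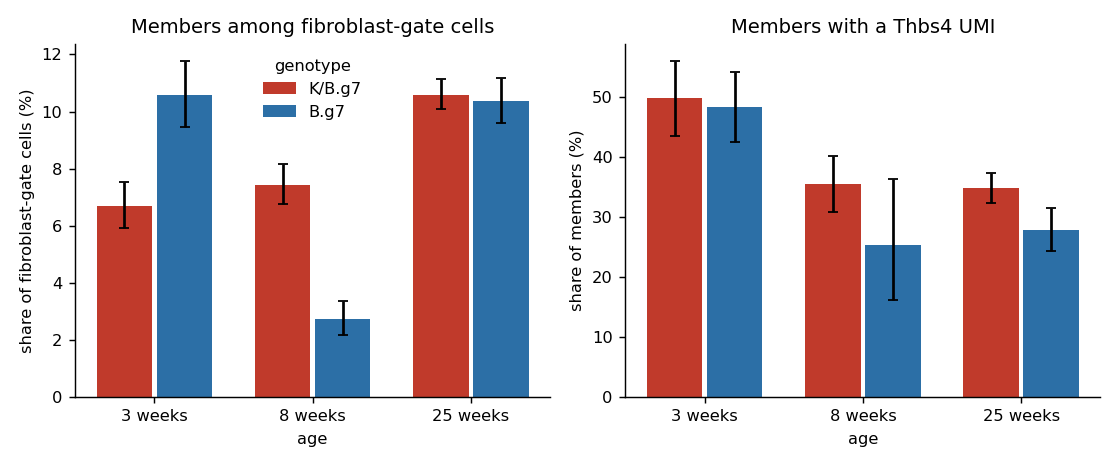
Left, share of fibroblast-gate cells that are members; right, share of members with a Thbs4 UMI, by age, for K/B.g7 (red) and B.g7 (blue), 1 library per bar with exact binomial 95% intervals. At 8 weeks members were 7.44% of the gate for K/B.g7 valves and 2.72% for B.g7 valves, and Thbs4 was seen in 49.8% of K/B.g7 and 48.3% of B.g7 members at 3 weeks and in fewer later.

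Compared with other fibroblasts of the same libraries, members had more Cst6, Dio2, Ltbp2 and Meox1 and less Igfbp3 and Apoe. Of 1464 genes with at least 100 CPM on the higher side, 432 (29.5%) were higher in members in all 6 libraries and 180 (12.3%) lower. Cst6, on chromosome 19 from 5344705 to 5349574 (mm10), encodes cystatin E/M, an inhibitor of lysosomal cysteine proteases. It had 309, 348 and 509 CPM in K/B.g7 members and 306, 250.4 and 337 CPM in B.g7 members at 3, 8 and 25 weeks. In other fibroblasts it had 23.5, 48.9 and 71.1 CPM in K/B.g7 and 29.4, 26.4 and 42.4 CPM in B.g7. No library of other fibroblasts reached the lowest library of members, and the median log2 ratio with 20 CPM added was 2.54, the largest of the genes compared.

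Dio2, the deiodinase that activates thyroid hormone, had a median log2 ratio of 2.04, with 90.7 to 160.1 CPM in members and 5.07 to 22.4 CPM in other fibroblasts. The classes did not overlap. Tgfb1, the TGF-beta ligand, had 78.6 to 128 CPM in members and 21.3 to 42.1 CPM in other fibroblasts. Ctgf (log2 ratio 1.12) and Postn (1.36), which TGF-beta can induce, were also higher in each library. Whether Tgfb1 had a part in their levels was not tested. Of 27 genes of the TGF-beta and BMP list with at least 20 CPM, 10 were higher in all 6 libraries and 4 lower, with a median log2 ratio of 0.16, beside 0.01 over all 5991 genes at that level. Ltbp2 (1.56), a microfibril protein, Meox1 (1.42), a homeobox factor of activated fibroblasts, Fibin (1.40), creatine kinase Ckb (1.26), Crispld1 (1.14), the fibril-associated collagen Col12a1 (1.08), Emp1 (1.05) and Sparcl1 (1.04) complete the 13 higher genes described.

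The genes of lowest ratio were led by Igfbp3, a carrier of insulin-like growth factors, with 13.8 to 34.9 CPM in members and 70.8 to 1206 CPM in other fibroblasts and a median log2 ratio of -2.23. Apoe, the lipoprotein of cholesterol transport, averaged 2620.4 CPM in members and 10010.3 CPM in other fibroblasts and had a median ratio of -1.89. The adhesion molecule Vcam1 (-1.38), the complement protein C4b (-1.30), the fibulin Efemp1 (-1.52), Clu (-1.61), Tmem176a (-1.26), Tmem176b (-1.26), Dbi (-1.24) and Dpep1 (-1.22) were lower in each library. After each cell was thinned to 2000 UMIs, all 13 higher and all 10 lower genes described had the same sign in every library. Where other fibroblasts were held to the limits on Chad, Wif1, Mmp3 and Lcn2, Clu no longer differed in 1 direction (median ratio -0.16), while the other genes described kept theirs.

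The lists differed in direction. Of 18 collagens measured, 12 were higher in all 6 libraries and 0 lower (median log2 ratio 0.32). Of 25 genes of elastic fibres and crosslinking, 14 were higher and 4 lower (0.26). Of the 15 tendon and ligament genes, 7 were higher and 0 lower (0.23). The 6 tendon markers Scx, Tnmd, Mkx, Kera, Fmod and Tnc did not sum to more in members everywhere. In K/B.g7 at 25 weeks they summed to 352.8 CPM in members and 417.7 CPM in other fibroblasts. In every other library the sum was higher in members, by least in B.g7 at 25 weeks (392.5 and 363.0 CPM). Interferon-induced genes were lower in 8 of 15 and higher in 0 (-0.20), class I antigen presentation in 7 of 11 and 0 (-0.23), complement in 4 of 11 and 1 (-0.05), and chemokines and cytokines in 6 of 18 and 0 (-0.54). Other matrix lists were mixed: 3 of 11 small leucine-rich proteoglycans were higher and 2 lower (-0.06), 1 of 16 matrix proteases and inhibitors was higher and 5 lower (-0.14), and 3 of 7 hyaluronan and large proteoglycan genes were higher and 0 lower (0.02). Over all 5991 genes, 16.1% were higher in all 6 libraries and 11.9% lower.

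**Figure D2:**
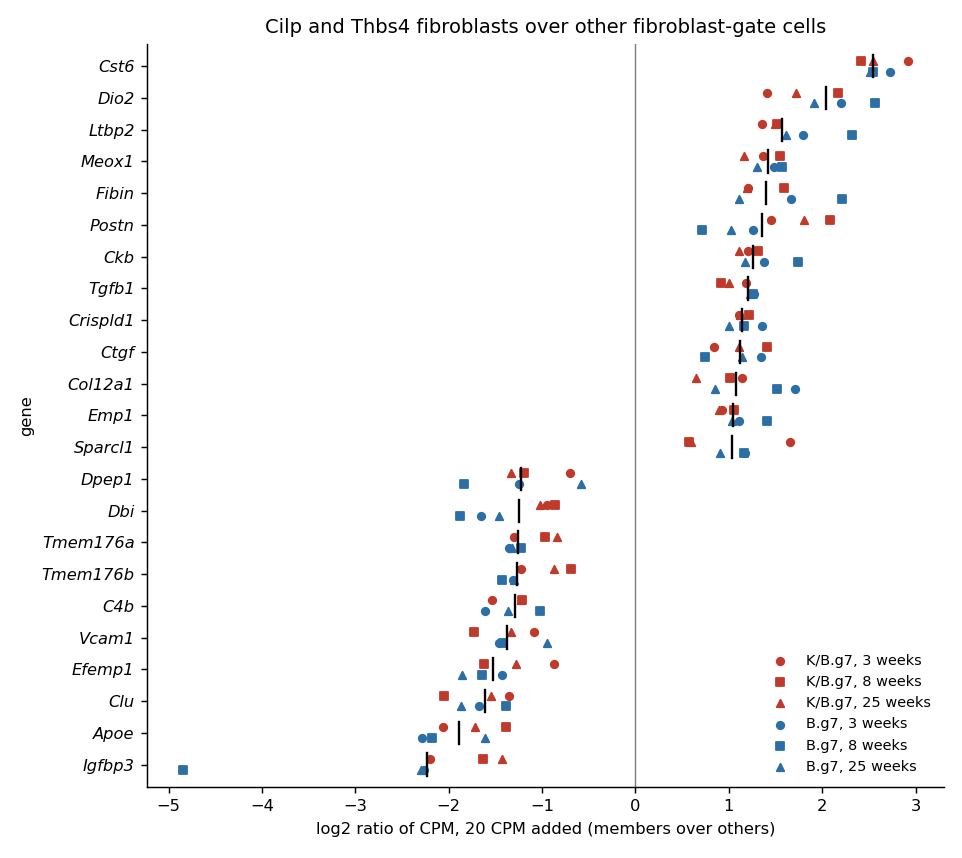
Log2 ratio of CPM in Cilp and Thbs4 fibroblasts over other fibroblasts, with 20 CPM added to both, for 13 genes of large and 10 of small median ratio. Each point is 1 library (red K/B.g7, blue B.g7; circle, square and triangle for 3, 8 and 25 weeks) and the black bar is the median; Cst6 is farthest right at 2.54 and Igfbp3 farthest left at -2.23.

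Some of these genes were shared with Chad cells, a class of 2436 cells of the same gate that the rule keeps out. Fibin had a mean of 876 CPM in members and 1337 CPM in Chad cells, so it did not set members apart from them. Ltbp2 averaged 219.7 CPM in members and 260.4 CPM in Chad cells, and Ctgf 1006 and 1147 CPM. Crispld1 averaged 107 CPM in members and 211 CPM in Chad cells, and Col12a1 143 and 225 CPM. Postn averaged 1109.6 CPM in members, 524 CPM in Chad cells and 1054 CPM in the 3964 Wif1 cells. Tgfb1 averaged 103 CPM in members, 56.6 CPM in Chad cells and 33.3 CPM in Wif1 cells. Cst6 was apart from every class, at 343 CPM in members against 51.1 CPM in Chad cells, 18.5 CPM in Wif1 cells and 44.8 CPM in the remaining cells. Igfbp3 averaged 21.1 CPM in members and 44.1, 105 and 392 CPM in these classes. Not every lower gene was lower than in each class. Efemp1 averaged 24.5 CPM in members and 24.6, 95.5 and 120 CPM in Chad, Wif1 and remaining cells. Dpep1 averaged 164 CPM in members, above the 96.8 CPM in Chad cells and 43.1 CPM in Wif1 cells. Its mean in the remaining cells was 506 CPM.

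Members were not of 1 kind. Those with a Thbs4 UMI (1110 cells) had higher levels of tendon transcripts than the other members in all 6 libraries. This split was chosen after values were seen and rests on a gene of the rule, so it is given without a test. Scx had 524, 144 and 172 CPM with Thbs4 and 42.3, 11.4 and 19.8 CPM without it in K/B.g7 at 3, 8 and 25 weeks. In B.g7 it had 509, 251 and 258 CPM with Thbs4 and 14.2, 14.7 and 17.1 CPM without it. The 2 kinds did not overlap. Tnmd, a membrane glycoprotein of tendon cells, ranged from 39.6 to 353 CPM with Thbs4 and from 0 to 2.85 CPM without it. Fmod, a proteoglycan that binds collagen fibrils, ranged from 188 to 2914 CPM with Thbs4 and from 32.8 to 167 CPM without it.

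Spp1, the matrix phosphoprotein osteopontin, had a median log2 ratio of 2.87 between members with and without Thbs4. The minor fibril collagen Col11a1 had 2.53, the Cilp relative Cilp2 2.45, Comp 2.15, Angptl7 1.99, the lubricin gene Prg4 1.77 and the transcription factor Runx1 1.51. Chodl (2.64), Ltbp2 (1.93), Rflnb (1.87), Col12a1 (1.77) and Crispld1 (1.66) complete the 15 genes of largest ratio, and all of them were higher with Thbs4 in the 6 libraries. Of 16 tendon and ligament genes, 12 were higher with Thbs4 in all libraries and 1 lower (median 1.50, beside 0.01 over all 6115 genes). Of all 6115 genes, 8.23% were higher with Thbs4 in all libraries and 7.98% lower. Members without Thbs4 had more Smoc2 (-1.72), a matricellular protein, Dpep1 (-1.61), Hmcn2 (-1.38), the Wnt antagonist Sfrp1 (-1.33), Clec3b (-1.15), C3 (-1.07), Scn7a (-1.06), Ly6a (-1.05), Il17d (-1.04) and Selenbp1 (-1.03). Of 16 genes of other fibroblast subsets, 12 were lower with Thbs4 in all libraries and 0 higher (median -0.64), and of 11 complement genes 7 were lower and 1 higher (-0.68). Median depths were alike in most libraries, for example 4099 UMIs with and 3917 without Thbs4 in K/B.g7 at 25 weeks, but 3953 and 6169 in B.g7 at 8 weeks, where 20 cells had Thbs4.

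**Figure D3:**
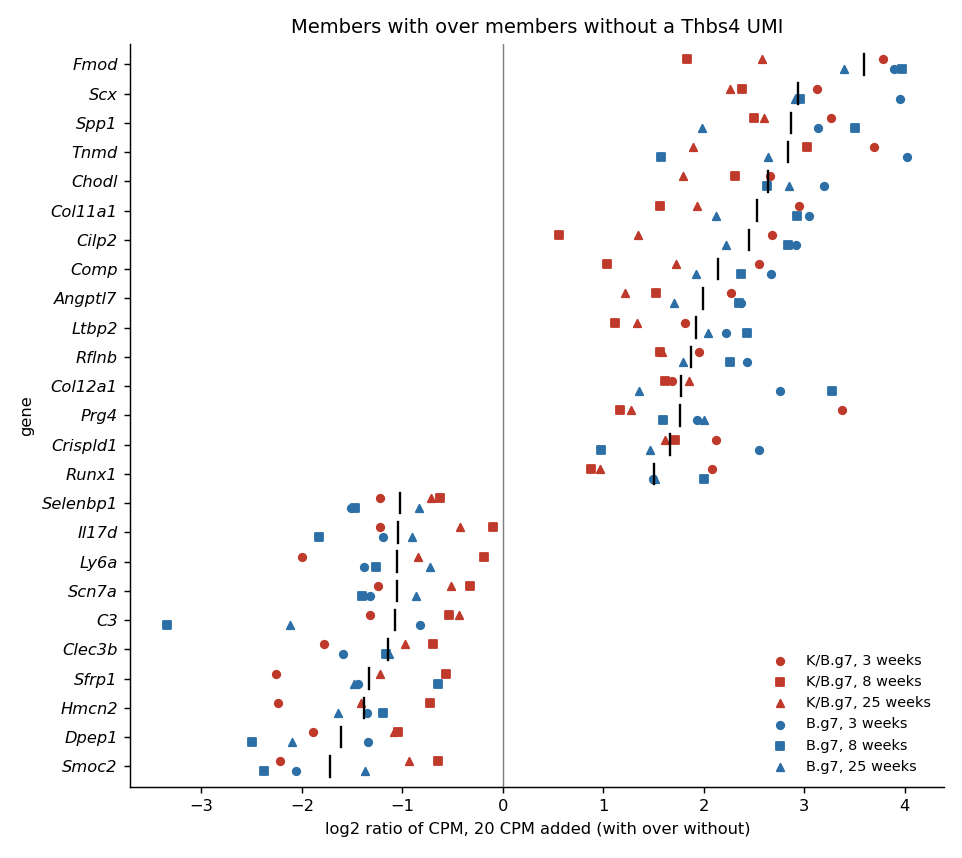
Log2 ratio of CPM in members with over members without a Thbs4 UMI, with 20 CPM added to both; each point is 1 library (red K/B.g7, blue B.g7; circle, square and triangle for 3, 8 and 25 weeks) and the black bar is the median. Fmod (3.59) and Scx (2.93) lead the genes higher with Thbs4, and Smoc2 (-1.72) those lower.

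The share of members with Thbs4 was highest at 3 weeks in both genotypes. It was 49.8%, 35.4% and 34.9% of K/B.g7 members and 48.3%, 25.3% and 27.8% of B.g7 members at 3, 8 and 25 weeks. With each cell thinned to 2000 UMIs it was 44.6%, 22.0% and 25.9% of K/B.g7 members and 40.7%, 12.5% and 19.3% of B.g7 members. That left out between 7 and 73 shallower members per library. The 3-week libraries stayed highest.

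Genotype was tested across the 3 ages, which stand as replicates, with age in the model. Naming asked for the same sign at every age, so that this trait of the named genes is a condition and not a result. The 9 genes named were higher in K/B.g7 members, and no lower gene met the naming rule. Among the 9 were genes of redox defence, nucleotide metabolism, a neuropeptide, a chemokine and osteopontin. By edgeR's quasi-likelihood test at a Benjamini-Hochberg adjusted p of 0.05, 36 of 10291 genes (0.35%) were higher in K/B.g7 and 7 (0.068%) lower. Without the 3-week libraries 56 were higher and 69 lower, so the balance of the calls turned. Of the 36, 27 were higher at all 3 ages, and 4 were hemoglobin genes, whose summed level was high in the K/B.g7 library of 8 weeks as given above. Igkc, an antibody gene of plasma cells, was also among the 36. The part of red cell and plasma cell RNA in the other calls was not tested.

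Gstp1, a glutathione transferase on chromosome 19 from 4035407 to 4037985, had 94.3, 200.0 and 169 CPM in K/B.g7 members and 36.0, 80.7 and 59.3 CPM in B.g7 members at 3, 8 and 25 weeks. The groups did not overlap, with K/B.g7 higher by a log2 fold change of 1.40 (SE 0.22, edgeR adjusted p = 2.23e-06). Its near copy Gstp2 may share reads with it. Erh, a small nuclear protein of RNA processing, had 129.5, 148 and 169 CPM in K/B.g7 and 49.3, 68.3 and 57.4 CPM in B.g7, again without overlap. Its log2 fold change was 1.37 (SE 0.22, edgeR adjusted p = 3.36e-06). Spp1 had 137, 142 and 158 CPM in K/B.g7 and 76.7, 45.5 and 71.1 CPM in B.g7. Its log2 fold change was 1.15 (SE 0.22, edgeR adjusted p = 0.000309), and all 3 K/B.g7 libraries lay above all 3 of B.g7. Its level was higher in members with Thbs4, at 277, 320.1 and 361 CPM in K/B.g7 and 169, 264 and 181 CPM in B.g7.

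Npy, neuropeptide Y, had 80.6, 26.8 and 58.8 CPM in K/B.g7 members and 31.3, 10.3 and 20.1 CPM in B.g7 members. It was higher in K/B.g7 by a log2 fold change of 1.44 (SE 0.24, edgeR adjusted p = 1.71e-05). The groups overlapped, as the K/B.g7 library of 8 weeks lay below the B.g7 library of 3 weeks. The others were Nme2, a nucleoside diphosphate kinase (1.32), Ccl19, a ligand of the lymphocyte homing receptor CCR7 (1.27), Rbm15, an RNA-binding protein (1.16), Grcc10 (1.05) and Ccdc85b (1.05). Their edgeR adjusted p-values lay between 3.5e-05 and 0.00848. Nme2 has close copies in the genome that could share its reads.

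The calls depend on the design. Without the 8-week libraries Spp1, Grcc10 and Ccdc85b missed the threshold, without the 25-week libraries Ccl19 and Rbm15 did, and without the 3-week libraries Ccdc85b did. In cells with Xist and no Ddx3y, only Gstp1 and Erh of the genes named passed, and Npy had a log2 fold change of -0.16. Most of the genes named missed the threshold with DESeq2, and most did with cells thinned to 2000 UMIs.

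Other fibroblasts had 104, 211 and 186 CPM of Gstp1 in K/B.g7 and 32.7, 72.6 and 68.5 CPM in B.g7. The genotype difference in members minus that in other fibroblasts was -0.05 for Gstp1 (SE 0.14), 0.26 for Erh (SE 0.13), 0.15 for Spp1 (SE 0.20) and 0.86 for Npy (SE 0.26). None of the 9 passed the test of that difference, with edgeR adjusted p from 0.243 to 1, which does not show that the classes respond alike.

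Few genes of any list were called for genotype, as few were over all genes (0.35% higher and 0.068% lower), so a list without a call says nothing of that list. The tendon and ligament list (16 tested), thrombospondins and their partners (9), small leucine-rich proteoglycans (12), elastic fibre genes (28), TGF-beta and BMP genes (29), matrix proteases (19), class I antigen presentation (12), interferon-induced genes (25) and complement (12) had 0 in either direction. Their medians lay between -0.15 and 0.21 on the log2 scale, beside 0.01 over all genes. Among 16 contractile genes Acta2, the smooth muscle actin of myofibroblasts, was higher (0.88, SE 0.22, edgeR adjusted p = 0.0271). It had 258, 86.2 and 189.7 CPM in K/B.g7 and 140.1, 49.7 and 97.6 CPM in B.g7, higher at each age. The 7 mural and smooth muscle markers summed to 68.4, 18.5 and 79.8 CPM in K/B.g7 members and 32.9, 62.1 and 47.0 CPM in B.g7 members. Myh11, the smooth muscle myosin, had 5.04, 2.17 and 28.7 CPM in K/B.g7 and 4.70, 0 and 3.65 CPM in B.g7. Cnn1 had 0.720, 0.362 and 10.4 CPM in K/B.g7 and 0.783, 0 and 0.228 CPM in B.g7. The part of these markers in the Acta2 result was not tested. Among 17 chondrogenic and osteogenic genes Spp1 and the cartilage cytokine Cytl1 (0.90, edgeR adjusted p = 0.0385) were higher. Among 19 collagens Col22a1, a collagen of tissue junctions, was lower (-1.06, edgeR adjusted p = 0.0495), with 8.63, 13.4 and 11.0 CPM in K/B.g7 and 50.9, 12.4 and 16.4 CPM in B.g7, so that the library of 3 weeks carried the difference.

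Among 20 chemokines and cytokines Ccl19 was higher and Cxcl10, an interferon-induced chemokine, lower (-2.49). Cxcl10 had 18.0, 12.7 and 4.22 CPM in K/B.g7 and 10.2, 153 and 39.0 CPM in B.g7. The B.g7 library of 8 weeks, with 79 members, stood far above the rest, and when genes of unusual spread kept their own (a robust fit) the edgeR adjusted p of Cxcl10 was 1.

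**Figure D4:**
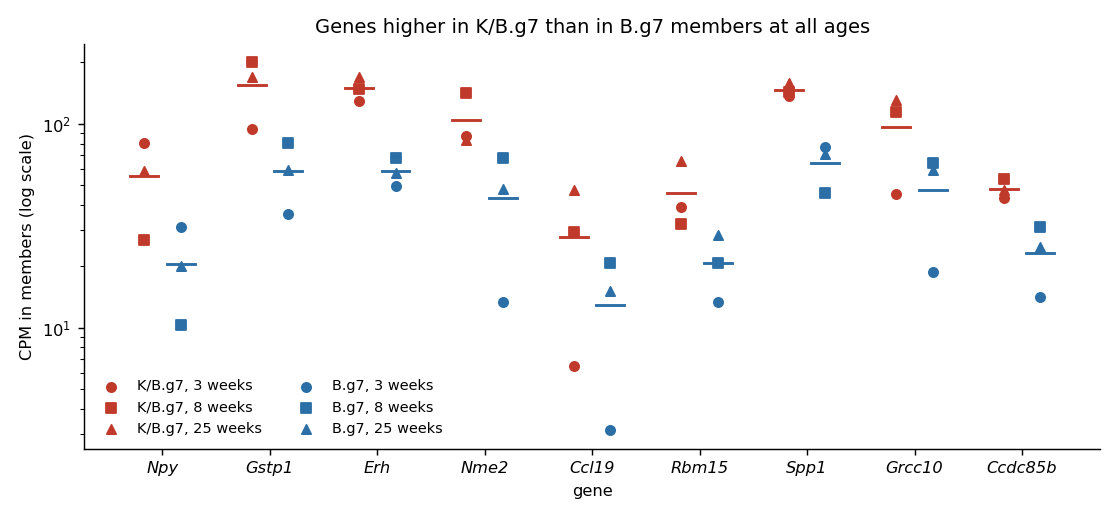
CPM in members on a log axis for the 9 named genes higher in K/B.g7 (red, left of each pair) than in B.g7 (blue); circle, square and triangle are 3, 8 and 25 weeks, 1 library each, and bars are means over the 3. Erh, for example, sits between 129.5 and 169 CPM in K/B.g7 and between 49.3 and 68.3 CPM in B.g7.

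Many more genes were called for 25 against 3 weeks (582) than for genotype (43), while 25 against 8 weeks had 49. From the same fit, 410 genes (3.98%) were higher and 172 (1.67%) lower at 25 than at 3 weeks, of which 405 and 168 had the same sign in both genotypes. Cthrc1, Fbn2 and 6 of 16 tendon and ligament genes fell. Of the complement list 5 of 12 genes rose, of chemokines and cytokines 5 of 20, and of interferon-induced genes 9 of 25. Values below run over 3, 8 and 25 weeks.

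Cthrc1, a secreted protein of matrix-building fibroblasts on chromosome 15 from 39076932 to 39087121, had 215, 20.3 and 10.1 CPM in K/B.g7 and 112, 6.21 and 10.3 CPM in B.g7. It fell by 3.92 on the log2 scale (SE 0.28, edgeR adjusted p = 7.75e-27), with the 3-week library of each genotype far above the later ones. Scx, on chromosome 15 from 76457452 to 76459458, had 269.8, 59.8 and 74.9 CPM in K/B.g7 and 237, 51.7 and 82.1 CPM in B.g7. It fell by 1.65 (SE 0.25, edgeR adjusted p = 1.66e-07). Tnmd had 113, 52.5 and 24.3 CPM in K/B.g7 and 160.5, 6.21 and 30.3 CPM in B.g7, and fell by 2.28 (SE 0.27, edgeR adjusted p = 6.75e-12). Of 16 tendon and ligament genes, 6 were lower (Tnmd, Cilp2, Col11a1, Kera, Scx and Tnc) and 0 higher, with a median of -0.75.

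The share of members with Thbs4 was also lower at the later ages, and its part in these results was not tested. Scx among members with Thbs4 was 524, 144 and 172 CPM in K/B.g7 and 509, 251 and 258 CPM in B.g7. Tnmd among them was 239, 144 and 63.0 CPM in K/B.g7 and 353, 39.6 and 110.2 CPM in B.g7. Comp, in contrast, had 795, 843 and 663 CPM in K/B.g7 and 546, 1008 and 687 CPM in B.g7 over all members, a difference of 0.06 (SE 0.28, edgeR adjusted p = 0.942). The 9 thrombospondins and partners had 0 calls.

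The elastic fibre list was split. Eln, elastin itself, had 2252, 124 and 300.1 CPM in K/B.g7 and 1335, 433 and 621 CPM in B.g7 and fell by 2.13 (SE 0.31, edgeR adjusted p = 3.55e-08). Fbn2, the fibrillin of developing microfibrils, fell by 2.46 (SE 0.29), and the microfibril protein Mfap2 by 1.82 (SE 0.26). P4ha2 (-1.09) and Mfap4 (-0.88) were also lower, while Efemp1 (2.05) and Ltbp4 (1.06) were higher, so 5 of 28 were lower and 2 higher. Among 19 collagens Col11a1 (-1.99), Col3a1 (-0.98) and Col1a1 (-0.88) were lower and 0 higher, with all 19 below 0. Cilp2 (-2.26), C1qtnf6 (-2.01) and Stmn1 (-1.94), a microtubule regulator of dividing cells, complete the 10 genes that fell most. Stmn1 had 114, 16.3 and 18.5 CPM in K/B.g7 and 66.5, 106 and 33.1 CPM in B.g7. With the spread of single genes kept, its edgeR adjusted p was 0.574.

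Of 18 proliferation genes, 11 were lower and 1, Pcna, was higher. They were rare: Mki67, the antigen of cycling cells, had 8.63, 0.362 and 1.62 CPM in K/B.g7 and 13.3, 12.4 and 2.96 CPM in B.g7.

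Among the genes that rose, Cxcl14, a chemokine of fibroblasts, had 6.48, 403 and 137 CPM in K/B.g7 and 11.0, 122 and 90.5 CPM in B.g7. It rose by 3.74 on the log2 scale (SE 0.36, edgeR adjusted p = 6.13e-17) and was highest in the K/B.g7 library of 8 weeks. C3, the central complement protein, had 54.0, 568 and 149.8 CPM in K/B.g7 and 28.2, 383 and 325 CPM in B.g7 and rose by 2.57 (SE 0.31). Isg15, a ubiquitin-like protein induced by interferon, had 2.16, 41.3 and 25.3 CPM in K/B.g7 and 2.35, 41.4 and 20.3 CPM in B.g7 and rose by 3.36 (SE 0.47). In each gene the 3-week libraries were the lowest of both genotypes, and 8 weeks lay above 25. Inmt, a methyltransferase (3.81), Tnfaip2 (2.71), Ccl19 (2.67) and the interferon-inducible Ifi211 (2.73), Ifi205 (2.67) and Ifi207 (2.57) also rose. These Ifi genes are near copies that may share reads. Tcap, a protein of striated muscle (2.84), had 128 CPM in the B.g7 library of 8 weeks and at most 14.1 CPM elsewhere, and its edgeR adjusted p was 0.768 with the spread of single genes kept.

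Over all genes tested, 3.98% were higher and 1.67% lower at 25 than at 3 weeks. A list with 1 call in a direction says little beside these shares. By list, 9 of 25 interferon-induced genes were higher and 0 lower (median 1.13, 24 of 25 above 0). Of 12 class I genes, 4 were higher (0.71). Complement had 5 of 12 higher (C3, C4b, C1s1, C1ra and C7) and 1 lower, C1qtnf6, which is a relative of C1q and not a complement component. Chemokines and cytokines had 5 of 20 higher (Cxcl14, Ccl19, Ccl11, Ccl8 and Il33). Of 29 TGF-beta and BMP genes Bmp6 (1.33), Bmp4 (0.83) and Tgfbr3 (0.80) were higher. Igf1 (-0.89) and Htra1 (-0.90) were lower and Igf1r (0.88) higher among 10 genes of IGF signalling. Of 17 Wnt genes Fzd1 (1.08) was higher. Adamts5 (1.08) and Timp3 (0.87) were higher and Mmp14 (-0.92) and Htra1 lower among 19 proteases and inhibitors. Of 26 transcription factors Ebf1 (0.98) was higher and Scx lower. The 20 immediate early genes, which respond to tissue digestion, had 0 calls for age or genotype. The 4 hemoglobin genes tested and Igkc were higher too, which are products of red cells and plasma cells.

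**Figure D5:**
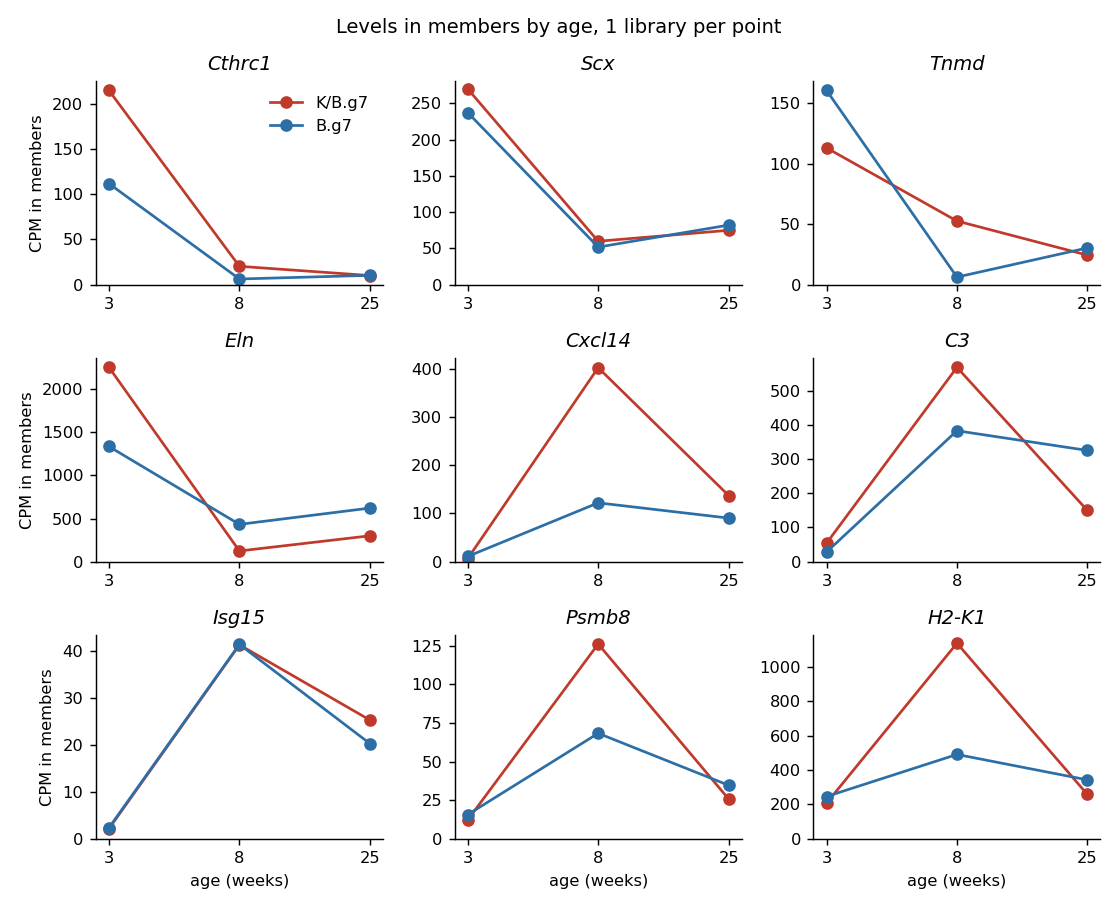
CPM in members at 3, 8 and 25 weeks for 9 genes, K/B.g7 in red and B.g7 in blue, 1 library per point. Cthrc1, Scx, Tnmd and Eln are highest at 3 weeks in both genotypes, and Cxcl14, C3, Isg15, Psmb8 and H2-K1 at 8 weeks, with Psmb8 at 126 CPM in K/B.g7 and 68.3 CPM in B.g7.

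The peak at 8 weeks was seen in the test of 25 against 8 weeks, in which 9 genes (0.0875%) were higher and 40 (0.389%) lower at 25 weeks. Of the 40 lower, 4 were hemoglobin genes. Of 12 class I antigen presentation genes, 7 were lower and 0 higher, with a median of -1.32. Psmb8, an immunoproteasome subunit, had 12.2, 126 and 25.8 CPM in K/B.g7 and 15.7, 68.3 and 34.6 CPM in B.g7 and fell by 1.79 (SE 0.27, edgeR adjusted p = 6.86e-07). H2-K1, a class I heavy chain, had 207, 1137 and 258 CPM in K/B.g7 and 246, 490.5 and 343 CPM in B.g7 and fell by 1.42 (SE 0.29). Its paralogs H2-D1 (-1.38) and H2-Q4 (-1.79) also fell, with counts that near-identical sequence could split. Both genotypes had their highest level at 8 weeks, and the K/B.g7 library was the higher of the pair for each of these 4 genes.

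Interferon-induced genes were lower in 4 of 25 (Iigp1, Irgm1, Igtp and Ifit3), complement in 3 of 12 (C1ra, C4b and C1s1) and chemokines in 3 of 20 (Cxcl10, Cxcl14 and Ccl8). Serpina3n (-1.68), Tmem176a (-1.62), Tmem176b (-1.45) and Chil1 (-1.46) fell as well. Cxcl10 (-1.76) and Tcap (-2.23), which rest on the B.g7 library of 8 weeks, had an edgeR adjusted p of 1 with the spread of single genes kept. Tagln (1.34) and Acta2 (1.06), contractile genes of myofibroblasts, were higher at 25 than at 8 weeks in both genotypes. The summed mural markers given above with Acta2 were higher at 25 than at 8 weeks in K/B.g7 members and lower in B.g7 members, and their part was not tested.

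Whether members differed from other fibroblasts in their response was tested in 1 model of both classes with the library as a block. For genotype, 31 of 13159 genes (0.236%) had a higher and 24 (0.182%) a lower difference in members. Of the 31 higher, 4 were hemoglobin genes, and the part of red cell RNA in the rest was not tested. Elastic fibre genes were among the lower ones. Eln in other fibroblasts had 2055, 84.8 and 263 CPM in K/B.g7 and 823, 94.4 and 212 CPM in B.g7. In both classes K/B.g7 was above B.g7 at 3 weeks and below it at 8 weeks. At 25 weeks K/B.g7 was below B.g7 in members and above it in other fibroblasts. The difference of differences was -1.11 (SE 0.13, edgeR adjusted p = 2.81e-06). Lox, the enzyme that crosslinks elastin and collagen, differed by -1.01 (SE 0.15), and of 28 elastic fibre genes 5 were lower (Eln, Lox, Mfap4, Ltbp2 and Fbn1) and 0 higher, with a median of -0.15. Of 16 tendon genes Fmod (-0.94) and Cilp2 (-0.88) were lower. The edgeR adjusted p of Fmod was 1 with the spread of single genes kept.

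Dio2 had 90.7, 160.1 and 119 CPM in K/B.g7 members and 116, 128 and 98.9 CPM in B.g7 members. In other fibroblasts it had 21.8, 19.97 and 22.4 CPM in K/B.g7 and 9.45, 5.07 and 11.6 CPM in B.g7, higher in K/B.g7 at each age. The difference of differences was -1.10 (SE 0.16, edgeR adjusted p = 0.000144). Gxylt2 (-0.80) and Pi16 (-0.81) were also lower. Higher were Dbi (0.75), Trf (1.09), the matricellular protein Postn (0.83), Fabp5 (0.68) and Tac1 (1.39). Postn had 1439.9, 1101 and 1438 CPM in K/B.g7 members and 1336, 629 and 714 CPM in B.g7 members. Its edgeR adjusted p was 0.00112, and 0.989 with the spread of single genes kept. That of Pi16 was then 0.645 and that of Tac1 was 1. The 6 mesothelial markers summed to 24.3 CPM in K/B.g7 members and 26.7 CPM in B.g7 members at 25 weeks, and in other fibroblasts to 35.5 CPM in K/B.g7 and 267 CPM in B.g7. Their part in this test was not tested.

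For 25 against 3 weeks, 29 genes (0.22%) had a higher and 9 (0.0684%) a lower difference in members than in other fibroblasts. Of the 29 higher, 3 were hemoglobin genes. Cilp2 had 102, 8.95 and 45.9 CPM in K/B.g7 and 58.8, 7.12 and 36.1 CPM in B.g7 in other fibroblasts, where 25 weeks lay above 8 weeks. In members it had 109, 6.16 and 17.2 CPM in K/B.g7 and 93.2, 29.0 and 25.3 CPM in B.g7. The difference of differences was -1.30 (SE 0.20, edgeR adjusted p = 0.000516). Aqp1, a water channel (-1.34), the proteoglycan Epyc (-0.99), Palld (-0.88) and Abi3bp (-0.71) were lower as well, as were Scx (-0.87) and Col12a1 (-0.69) of the tendon list. The edgeR adjusted p of Scx was 0.98 with the spread of single genes kept. Gadd45g (0.91), Ly6a (0.85), Ly6c1 (0.96), the matrix glycoprotein Sparc (0.66) and the adhesion molecule Icam1 (0.99) were higher. Sparc had 13961, 3304 and 4389 CPM in K/B.g7 members and 13441, 3377 and 6041 CPM in B.g7 members, against 14049, 2057 and 2708 CPM in K/B.g7 and 11146, 1558 and 3569 CPM in B.g7 among other fibroblasts.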

How the data were processed

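The authors deposited raw UMI counts for 31053 genes in each barcode. Cell Ranger 3.1.0 and mm10 were used, per the submitters' processing notes. Their annotation and cell calling settings are not stated in those notes. The members, gene lists and naming rules were chosen with earlier results of these data known.

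Counts were summed over members, and over other fibroblasts, in each library. They were tested with edgeR 4.0.16 in R 4.3.3 (TMM, filterByExpr, quasi-likelihood F test, threshold of 0.05 on Benjamini-Hochberg adjusted p) with genotype and age in 1 model, which leaves 2 residual degrees of freedom. Libraries were paired by their labelled age, and deviations of same-age libraries correlated by 0.421, 0.190 and 0.119 at 3, 8 and 25 weeks. Standard errors are the fitted change over the square root of F. With so few libraries, the spread of a gene was taken almost wholly from all genes (prior degrees of freedom 196.8). A robust fit that keeps unusual spreads was added after seeing the data, as were cells with Xist only and other fibroblasts within the rule's limits.

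Up to 10 genes per direction were named for genotype and age (largest change past the threshold, 1 sign throughout, a mean of at least 20 CPM), up to 5 for class differences (smallest p), and 15 higher and 10 lower genes against other fibroblasts (1 sign in 6 libraries, at least 100 CPM). Left out of naming were the rule's own genes, sex-linked genes, those of mitochondria, ribosomes, hemoglobin or antibodies, and those without a symbol. A few genes that these rules name are not reported here. The 22 gene lists add up to 4 members of smallest p and any past the threshold, of which part is given. No doublet caller was run: the rule asks for no Ptprc or Pecam1, and 1 alternative leaves out members over 2 times the median UMIs. The fits were tested on simulated data. DESeq2 1.42.0 was an alternative. Python 3.11.15, numpy 2.4.6, scipy 1.17.1, pandas 2.3.3 and matplotlib 3.10.9 were used, with gene positions from an mm10 annotation that holds 99.6% of the gene IDs.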

Additional observations from a re-analysis of the deposited data

Results flagged for a closer look

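The genotype difference differed between members and other fibroblasts, by edgeR's quasi-likelihood test of the difference itself, for 10 named genes. In log2 units, K/B.g7 minus B.g7 in members less the same in other fibroblasts was 0.75 for Dbi, 1.09 for Trf, 0.83 for Postn, 0.68 for Fabp5 and 1.39 for Tac1. It was -1.11 for Eln, -1.01 for Lox, -0.80 for Gxylt2, -1.10 for Dio2 and -0.81 for Pi16. The change between 3 and 25 weeks differed in the same way for another 10. It was more positive in members by 0.91 for Gadd45g, 0.85 for Ly6a, 0.96 for Ly6c1, 0.66 for Sparc and 0.99 for Icam1. The values were -1.30 for Cilp2, -1.34 for Aqp1, -0.99 for Epyc, -0.71 for Abi3bp and -0.88 for Palld. With DESeq2, 9 of the 10 genes for genotype and all 10 for age kept their direction but missed the threshold. With the spread of single genes kept in edgeR, Postn, Pi16 and Tac1 missed it.

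The share of members in the fibroblast gate differed by -3.87 percentage points between K/B.g7 and B.g7 at 3 weeks and by 4.72 points at 8 weeks. These are opposite signs from 1 library per genotype and age, and the difference between the ages was not tested.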

How the results depend on the processing

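With 6 libraries, 2 residual degrees of freedom and 79 members in the smallest library, the number of calls depended on the tool and the cells used. The values below are counts of genes past the threshold for genotype (43 as reported), 25 against 3 weeks (582), 25 against 8 weeks (49), and the class differences for genotype (55) and age (38). DESeq2 called 6, 138, 7, 2 and 1. Cells thinned to 2000 UMIs gave 12, 260, 26, 27 and 17. Cells with Xist only gave 4, 139, 8, 10 and 5. Members whose 3 genes made up 0.1% of UMIs gave 25, 362 and 28 for the first 3. For the class differences, no filter on low counts gave 105 and 88, at least 6 UMIs of the 3 genes gave 128 and 103, and leaving out members of high UMIs gave 102 and 84. Leaving out 1 age at a time gave 21 to 125 for genotype, 439 for 25 against 3 weeks, 75 for 25 against 8 weeks, 62 to 132 for the class difference in genotype and 173 for that in age. Without the pairing by age (no replicate block), edgeR called 0 genes for genotype, with 148 higher and 106 lower at an unadjusted p of 0.05, and DESeq2 with the pairing called 6. Against other fibroblasts within the same limits, 19 genes differed at least 2-fold in all 6 libraries (15 higher, 4 lower), while against all other fibroblasts 12 did (8 higher, 4 lower).

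The difference in member share lay between -1.83 (without 8 weeks, reversed) and 2.47 points (without 3 weeks). Npy for genotype was -0.16 in Xist cells, and Tcap for 25 against 8 weeks was 0.12 with at least 6 UMIs. Of 752 values of named genes under alternatives, 624 kept their direction and side of the threshold, 126 kept the direction only, and 2 reversed. The causes were not tested.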
